A study of Mus musculus with 12 samples.

Results

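The response to retinoic acid (RA) of mouse embryonic stem cells that had received an inhibitor of O-GlcNAc transferase (OGT) was described by RNA sequencing. The comparison set 3 libraries of inhibitor-treated cells differentiated with RA (RA_OGTi) against 3 libraries of inhibitor-treated cells left undifferentiated (mESC_OGTi). Its members are the 13990 genes, of 54555 in the deposited table, that reached 1 FPKM (fragments per kilobase of gene, scaled per library as deposited) in at least 3 of these 6 libraries. All cells were R1, an established mouse embryonic stem cell line grown on gelatin with leukemia inhibitory factor (LIF). The mESC_OGTi cells received 25 µM Ac45SGlcNAc, a thio sugar that inhibits OGT, for 48 h. The RA_OGTi cells were pre-treated with the same inhibitor and then kept with 1 µM RA for 48 h in medium without LIF. The matching groups without inhibitor were mESC_control, undifferentiated, and RA_control, given the solvent DMSO and then the same RA step, with 3 libraries each. No source used here says whether the inhibitor stayed in the medium while RA was present. RA, replating, the loss of LIF and the longer culture came together, so their effects cannot be told apart. The labels number the libraries but do not say whether they came from separate cultures, so each p-value reflects library-to-library spread that may be partly or wholly technical.

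RA is a vitamin A derivative that binds the nuclear receptors RARα, RARβ and RARγ, which sit on DNA with RXR partners and switch from repression to activation when bound. Its direct targets include the enzymes that break it down and the Hox genes that pattern the body axis. Embryonic stem cells given RA leave the pluripotent state held by Oct4 (gene Pou5f1), Sox2 and Nanog, while LIF, acting through STAT3, holds the naive form of that state. OGT adds N-acetylglucosamine to serines and threonines of nuclear and cytoplasmic proteins, and O-GlcNAcase, listed here under its older symbol Mgea5, removes it.

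The receptors bind paired half-sites, of which the pair in the same orientation with 5 bases between (DR5) is the best known. Promoters from RefSeq (GRCm38.p6, 250 bases before to 50 bases after each start) were searched on both strands for 2 half-sites spaced in that way. A half-site could be AGTTCA. It could also be the form AGGTCA, or have a G in place of the leading A in either form. Such a pair stood in 32 of 32851 promoters (0.0974%) and in 2 of the 40 promoters found for members of the RA target, retinoid and Hox lists described below. Over all members it stood in 3 of 12238 promoters (0.0245%). Members called higher after RA held it in 2 of 4218 promoters (0.0474%) and members called lower in 1 of 4893 (0.0204%). With 2 bases between, the pair stood in 88 of the 32851 promoters (0.268%) and in 0 of the 40. The 2 of the 40 promoters that held a DR5 belong to Rarb, which encodes RARβ, and Cyp26a1, which encodes an enzyme that breaks down RA. They are printed as the only ones of the 40 with either pair. Both genes stood under 1 FPKM in every mESC_OGTi library and above 1 FPKM in every RA_OGTi library. In the Rarb promoter (chr14:16575427-16575726, minus strand, inside the annotated gene) the pair begins 53 bases before the start. In the Cyp26a1 promoter (chr19:37697558-37697857, plus strand) it begins 32 bases before the start and reads on the opposite strand. Capitals mark the pair with its spacer, and a match of letters is a description, not a binding site.
Rarb: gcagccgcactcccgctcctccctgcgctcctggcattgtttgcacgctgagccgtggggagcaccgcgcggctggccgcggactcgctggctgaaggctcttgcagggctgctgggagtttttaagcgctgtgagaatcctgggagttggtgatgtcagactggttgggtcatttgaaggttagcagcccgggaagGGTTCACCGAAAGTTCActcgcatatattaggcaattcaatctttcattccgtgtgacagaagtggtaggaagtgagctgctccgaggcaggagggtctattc
Cyp26a1: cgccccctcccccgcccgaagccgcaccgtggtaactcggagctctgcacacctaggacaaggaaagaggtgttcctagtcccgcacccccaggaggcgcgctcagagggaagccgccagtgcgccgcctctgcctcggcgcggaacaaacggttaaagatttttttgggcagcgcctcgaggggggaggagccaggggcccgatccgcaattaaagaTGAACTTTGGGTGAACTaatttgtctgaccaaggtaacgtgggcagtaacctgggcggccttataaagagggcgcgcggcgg

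The 6 libraries held between 15915453 and 17833464 fragments assigned to genes and 12960 to 13870 genes at 1 FPKM or more. The first principal component over members held 87.9% of the variance and parted the 3 mESC_OGTi from the 3 RA_OGTi libraries, and the second held 3.83%. Core pluripotency transcripts summed to between 3099 and 3202 FPKM in mESC_OGTi, which bears on the label of undifferentiated cells. Markers of fibroblasts or feeders summed to 15.6 to 17.9 FPKM in mESC_OGTi and 29.7 to 31.2 FPKM in RA_OGTi, with 7 of 12 below the filter and Dcn and Fap listed at 0. Markers of blood and endothelium summed to 33.6 to 37.2 and 17.4 to 17.7 FPKM, with 7 of 12 below the filter and Emcn and Hbb-bh1 listed at 0. Ribosomal RNA took 0.134% to 0.136% of fragments in mESC_OGTi and 0.198% to 0.209% in RA_OGTi. Mitochondrial protein genes took 0.589% to 0.715% and 0.566% to 0.647%. The part of these shifts in the results was not tested. In bulk RNA, fewer cells of a type and less RNA per cell cannot be told apart.

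After RA most members differed from the inhibitor-treated stem cells. Of 13990 members, 4511 were higher (32.2%) and 5333 lower (38.1%), 70.4% in all (limma on log2(FPKM + 1), Benjamini-Hochberg adjusted p under 0.05 over the 14866 genes fitted). Fold changes below are on this log2(FPKM + 1) scale, where the added 1 shrinks those of weakly expressed genes. Changes of at least 2-fold numbered 1128 higher and 855 lower, and those of at least 8-fold 32 and 28. In 10302 members (73.6%) the 3 libraries of 1 group all lay above the 3 of the other. The split between directions leaned on the scale, since 45.8% of calls were higher with the deposited FPKM and 65.7% after scaling each library to a common sum of length-corrected levels (TPM), which moved the median log2 fold change of all members from -0.054 to 0.193.

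Direction went with expression level. Among members with a mean of 1 to 5 FPKM, 2132 of 5565 rose and 1322 fell (median log2 fold change 0.0991). Between 5 and 50 FPKM, 1917 of 6774 rose and 3155 fell (median -0.143), and at 50 FPKM or more 160 of 1163 rose and 770 fell (median -0.371). Of 12005 protein-coding members 4173 rose and 4745 fell, and of 215 lincRNAs 54 rose and 69 fell. Processed pseudogenes, copies of spliced messages whose reads may belong to the parent gene, rose in 59 and fell in 308 of 828 (median -0.284). A gene that passed the filter only through the group where it was high had to differ, which holds for 921 members below 1 FPKM in every mESC_OGTi library and 314 below it in every RA_OGTi library. Among the 12755 members that reached 1 FPKM in both groups, 3599 rose and 5025 fell.

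The transcripts that define stem cell identity fell the most. Of 16 core pluripotency members 15 fell and 0 rose (median log2 fold change -2.14, against -0.054 over all members), and of 20 naive pluripotency members 19 fell and 0 rose (median -1.56). Tdgf1, a co-receptor for Nodal (ENSMUSG00000032494, chromosome 9, 110939603 to 110946158), stood at 488, 471 and 531 FPKM in mESC_OGTi and at 3.43, 3.65 and 3.02 FPKM in RA_OGTi. The groups lay far apart with no overlap, and the log2 fold change of -6.83 (SE 0.071, adjusted p = 1.32e-13) was the largest fall of a protein-coding member. Reads of Tdgf1 and of its copy Tdgf1-ps1, which fell by 6.85 on the log2 scale, cannot be fully separated.

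The central factors kept part of their transcript. Pou5f1 stood at 702, 756 and 774 FPKM in mESC_OGTi and 128, 127 and 145 FPKM in RA_OGTi (log2 fold change -2.48, SE 0.081, adjusted p = 4.05e-10). Its lowest stem cell library was several times above its highest RA library. Sox2 went from 335, 333 and 311 to 43.9, 47 and 42.6 FPKM (-2.85), and Nanog from 289, 291 and 299.8 to 26.7, 26.1 and 25.1 FPKM (-3.45, SE 0.054, adjusted p = 1.52e-12). All of these pairs of groups were separated, and Nanog lost a larger share of its level than Pou5f1 or Sox2 in every library. Lin28a, an RNA-binding protein that blocks let-7, moved little, from 88.5, 92.8 and 90.7 to 82.7, 81.7 and 82.0 FPKM (log2 fold change -0.14, adjusted p = 0.0162). That call was lost without mESC_OGTi replicate 2 (adjusted p = 0.0619), and the sign turned under TPM scaling (0.131).

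The naive list fell less in its median than the core list, and its members ended at differing levels. Zfp42 (Rex1), a marker of the naive state, went from 296, 274 and 271 to 22.5, 23.2 and 24.7 FPKM (log2 fold change -3.52). Esrrb, a nuclear receptor of the naive network, went from 169.6, 181 and 177 to 11.7, 11.2 and 13.2 FPKM (-3.76). Klf4, a factor downstream of LIF, went from 81.7, 82.7 and 77.5 to 6.54, 8.21 and 6.36 FPKM (-3.35). Tcl1, a co-activator of AKT, and Nr0b1 fell to 1.38 ± 0.513 and 3.34 ± 0.281 FPKM from 54.1 ± 4.54 and 45.8 ± 2.14 FPKM (SD, n = 3). Klf2 fell less, from 325 to 139.6 FPKM (-1.22), so members of this list did not fall in step.

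**Figure D1:**
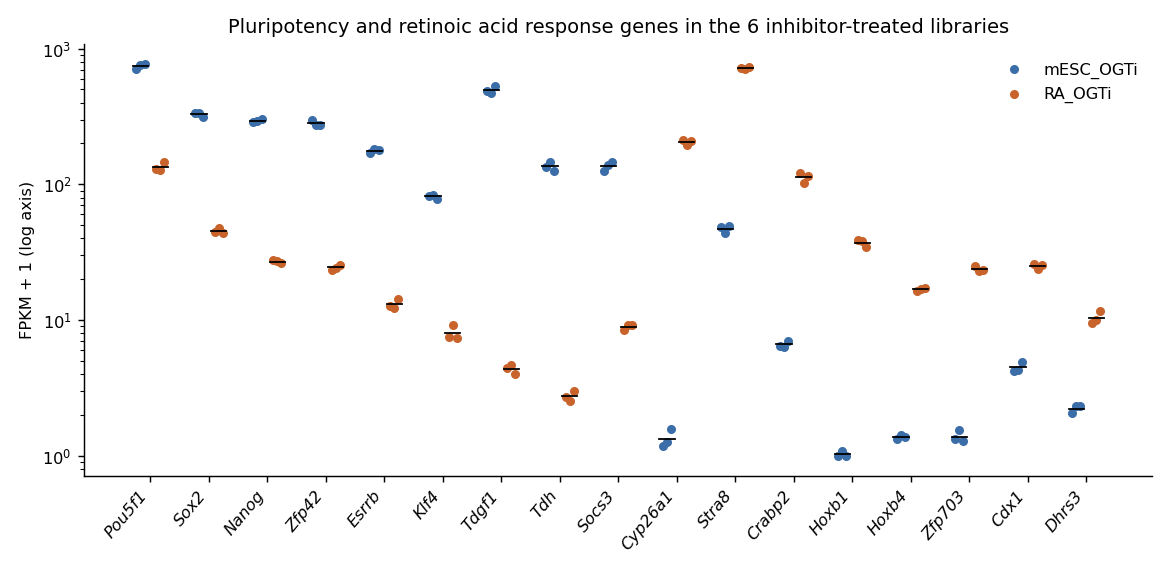
FPKM + 1 on a log axis for 17 genes in the 3 mESC_OGTi and 3 RA_OGTi libraries, 1 point per library and a line at each group mean. Pluripotency and LIF genes on the left are higher in mESC_OGTi (Nanog 289 to 299.8 against 25.1 to 26.7 FPKM), RA response genes on the right are higher in RA_OGTi (Cyp26a1 194 to 212 against 0.182 to 0.578 FPKM), and in none of the 17 do the groups overlap.

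Several feedback genes of LIF and ERK signalling fell, in lists that moved in both directions. Of 12 members of the LIF and STAT3 list 9 fell and 3 rose (median log2 fold change -0.718). Socs3, the feedback inhibitor induced by STAT3, stood at 125, 138 and 145 FPKM in mESC_OGTi and 7.44, 8.18 and 8.19 FPKM in RA_OGTi (-3.94, SE 0.064, adjusted p = 1.89e-12). The receptor itself changed less, Lifr going from 7.95 to 4.11 FPKM (-0.80). Of 15 ERK feedback genes and ETS factors 8 fell and 5 rose (median -0.517), against 7 and 6 under TPM scaling (median -0.315). Of all members 38.1% fell and 32.2% rose. The ETS factor Etv4 went from 50.4, 51.6 and 49.9 to 1.68, 1.65 and 1.74 FPKM (-4.26), and the ERK inhibitors Spry4 and Spry2 fell by 3.58 and 2.92 on the log2 scale. The phosphatase gene Dusp5 went the other way, rising from 5.58 to 22.6 FPKM (1.85).

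Ligands and receptors of the main growth factor families moved in both directions, as did members as a whole, of which 32.2% rose and 38.1% fell. Of 15 FGF ligands and receptors 9 rose and 4 fell (median log2 fold change 0.373). Fgf4, the autocrine FGF of stem cells, went from 106, 104 and 122 to 10.1, 9.22 and 9.55 FPKM (-3.39), while the receptor Fgfr2 rose from 0.496 to 3.8 FPKM (1.68). In the nodal and BMP list 9 of 21 rose and 9 fell (median 0.0721). The BMP-induced HLH genes Id1, Id2 and Id3 rose from 134, 10.5 and 11.3 to 355, 68.2 and 74.4 FPKM (1.40, 2.60 and 2.60), and Inhbb, an activin subunit, fell from 15.1 to 0.733 FPKM (-3.21). Of 29 Wnt pathway members 18 rose and 10 fell (median 0.461), with the receptors Fzd2 and Fzd1 higher (1.80 and 1.64), the receptor Fzd5 lower (-1.99) and the secreted inhibitor Sfrp5 higher (1.97). Of 12 formative and primed pluripotency members 4 rose and 6 fell (median -0.354), where Otx2 went from 6.66, 6.82 and 6.91 to 0.371, 0.241 and 0.342 FPKM (-2.57) and Sox3 from 3.97, 3.9 and 5.25 to 32.1, 34.4 and 33.2 FPKM (2.68). Under TPM scaling 11 FGF members rose and 4 fell, and 10 nodal and BMP members rose and 8 fell. In the same scaling 19 Wnt members rose and 7 fell, and 6 formative and primed members rose and 6 fell.

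The machinery that carries and breaks down RA rose strongly. Of 13 members for retinoid binding, synthesis and breakdown 11 rose and 1 fell (median log2 fold change 1.76), 4 of them having passed the filter only through RA_OGTi. Cyp26a1 (ENSMUSG00000024987, chromosome 19, 37697808 to 37701528), whose promoter is printed above, stood at 0.182, 0.269 and 0.578 FPKM in mESC_OGTi and 212, 194 and 209 FPKM in RA_OGTi. It had the largest rise of all members (log2 fold change 7.27, SE 0.096, adjusted p = 6.23e-13). An assembled transcript without a gene name, just upstream (chromosome 19, 37697167 to 37697530), went from 0, 0.187 and 0 to 21.1, 17.2 and 13.7 FPKM. Cyp26b1, a second enzyme of the family, reached 5.37, 5.93 and 5.34 FPKM from 0.35, 0.191 and 0.216 FPKM (2.39).

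A carrier and a reductase followed. Crabp2, which carries RA to its receptors in the nucleus, went from 5.42, 5.37 and 6.06 to 120.1, 102 and 114 FPKM (log2 fold change 4.09, SE 0.11, adjusted p = 1.38e-10). Dhrs3, which turns retinaldehyde back to retinol, went from 1.06, 1.33 and 1.31 to 8.49, 9.06 and 10.7 FPKM (2.22). In both of these the RA libraries lay well above the stem cell libraries. Crabp1, already at 50.5 FPKM, rose less (0.64), and Rdh11, a retinaldehyde reductase, fell (-0.77).

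The receptors did not move together. Of 11 members of the receptor and coregulator list 3 rose and 5 fell with a median of -0.0612, which turned to 0.207 under TPM scaling. Rarb went from 0.0736, 0.0778 and 0.134 to 2.24, 2.85 and 1.98 FPKM (log2 fold change 1.61, SE 0.11, adjusted p = 1.66e-07). Rarg, the highest of the RAR genes by FPKM, went from 51.2, 49.1 and 53.5 to 27.4, 26.7 and 27.3 FPKM (-0.89). Rara lay at 23, 22.5 and 22.7 against 23, 20.2 and 22.1 FPKM, and its difference did not pass (-0.06, SE 0.073, adjusted p = 0.473). Its sign turned under TPM scaling (0.207, adjusted p = 0.0491). After RA, therefore, Rarg and Rara stood near 27 and 22 FPKM and Rarb near 2.4 FPKM.

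Known RA targets rose with few exceptions. Of 19 members of the target list, which shares genes with the retinoid and Hox lists, 16 rose and 1 fell (median log2 fold change 1.66), and 10 passed the filter only through RA_OGTi. Stra8, a gene induced by RA before meiosis, stood at 47.2, 42.5 and 48.7 FPKM in mESC_OGTi and 716, 708 and 735 FPKM in RA_OGTi (3.94, SE 0.056, adjusted p = 8.83e-13). Zfp703, a zinc finger repressor, went from 0.343, 0.543 and 0.283 to 24.1, 21.9 and 22.5 FPKM (4.10). Cdx1, a homeobox regulator of Hox genes, went from 3.21, 3.27 and 3.96 to 24.9, 22.7 and 24.6 FPKM (2.49). The libraries of the groups stayed apart for each gene.

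Hox genes rose to differing levels. Of 39 Hox genes that were listed, 22 were members, 21 rose and 0 fell (median log2 fold change 1.48), and 18 passed the filter only through RA_OGTi, so their count follows in part from the filter. Hoxb1 (ENSMUSG00000018973, chromosome 11, 96365752 to 96368256), the hindbrain Hox gene with RA elements, stood at 0, 0.0882 and 0 FPKM in mESC_OGTi and 37.8, 37.2 and 33.3 FPKM in RA_OGTi. Its fitted log2 fold change of 5.17 depends on the pseudocount, since the stem cell libraries lie at or near 0. Hoxb4, a gene of the hindbrain and neck region, went from 0.327, 0.425 and 0.375 to 15.5, 16 and 16.3 FPKM (3.62).

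The clusters differed in level. Summed over their genes, cluster B went from 2.16 to 79.3 FPKM, C from 4.85 to 9.45 FPKM and D from 2.57 to 16.9 FPKM. In cluster B the genes did not form a steady slope, since Hoxb1 (36.1 FPKM) and Hoxb4 (15.9 FPKM) were followed by Hoxb9 (8.88 FPKM) and Hoxb7 (8.6 FPKM), while Hoxb2 and Hoxb3 between them reached only 1.18 and 0.790 FPKM. In cluster A, Hoxa5 reached 4.11 FPKM and Hoxa2 1.64 FPKM. The last genes of all 4 clusters were also above 1 FPKM after RA, with Hoxd13 at 4.75 FPKM, Hoxc13 at 2.76 FPKM, Hoxb13 at 1.87 FPKM and Hoxa13 at 1.34 FPKM. Hoxc13 was the member that did not pass (2.56 and 2.76 FPKM, log2 fold change 0.07).

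**Figure D2:**
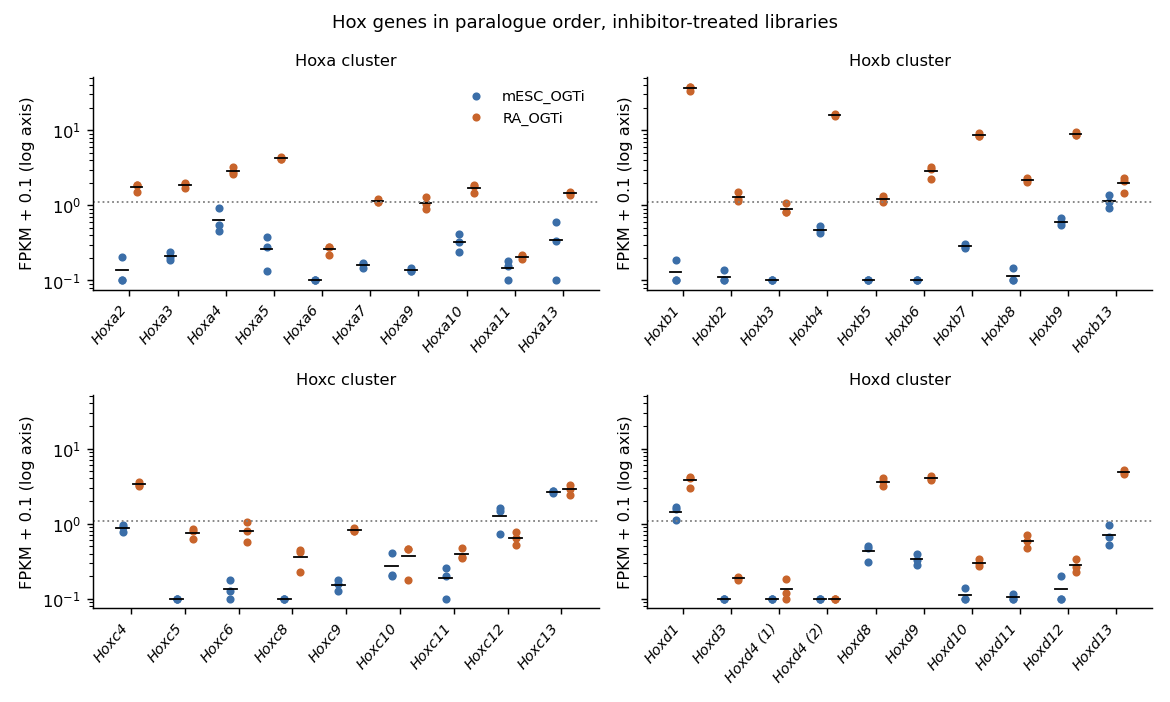
FPKM + 0.1 on a log axis for the Hox genes reported from the 4 clusters, in paralogue order, with 1 point per library and a line at each group mean, and a dotted line at 1 FPKM. The B cluster holds the highest RA_OGTi levels (Hoxb1 36.1 FPKM, Hoxb4 15.9 FPKM), most C cluster genes stay under 1 FPKM in both groups, and Hoxd4 is drawn for the 2 gene models of that name.

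Hox partners rose beside them. Of 13 Hox cofactor and Cdx members 10 rose and 3 fell (median log2 fold change 1.06), 4 through RA_OGTi alone. Meis2 went from 0.182, 0.181 and 0.117 to 3.46, 3.18 and 2.94 FPKM (1.85) and Meis1 reached 1.3 FPKM (1.09). Meis proteins bind DNA together with Hox proteins. Tgif1, a related homeobox repressor, fell from 36.8 to 10.4 FPKM (-1.73).

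Most early regional and neural progenitor factors that were members rose, but most neuronal members did not. Of 15 neural progenitor members 12 rose and 1 fell (median log2 fold change 1.04, 7 through RA_OGTi alone), while 13 of the 28 genes on the list stayed below the filter. The neural tube factors Irx3 and Msx1 went from 1.21 and 0.689 to 9.52 and 4.92 FPKM (2.26 and 1.81), and Sox9 from 0.19 to 2.93 FPKM (1.72). Sox1 and Nes, markers of committed neural progenitors, rose only to 1.3 and 3.24 FPKM (0.39 and 0.68), and Pax6 reached at most 0.972 FPKM in any of the 6 libraries. Of 28 neuronal genes only 9 were members, of which 2 rose and 6 fell (median -0.377), against 3 and 4 under TPM scaling (median -0.263). Dlx2 was among those that rose, from 0.168 to 2.13 FPKM (1.425, limma adjusted p = 2.55e-07), having passed the filter only through RA_OGTi. Tubb3, a tubulin used as a neuronal marker but expressed by these stem cells, went from 43.1, 50.1 and 51 to 12.6, 11.4 and 15.9 FPKM (-1.79), and Stmn2 fell by 1.56. Of 8 neural crest members 5 rose and 3 fell (median 0.876), with Twist1 and Snai2, factors of migrating cells, higher (1.57 and 1.21) and Tfap2c lower (-1.44).

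Endoderm factors rose to low levels. Of 20 extraembryonic endoderm members 17 rose and 2 fell (median log2 fold change 0.807), 5 of the 20 having passed the filter only through RA_OGTi. Gata4 and Gata6, which drive primitive endoderm, went from 2.84 ± 0.395 and 1.06 ± 0.113 to 7.83 ± 0.422 and 3.74 ± 0.126 FPKM (SD, n = 3, 1.21 and 1.20), and Sox17 reached 2.15 FPKM (0.82). Lama1, a laminin of its basement membrane, fell (-1.03). Of 9 mesoderm and primitive streak members 6 rose and 1 fell (median 0.774, 5 of the 9 through RA_OGTi alone), with Foxf1 and Foxc2 at 3.65 and 2.07 FPKM, and T, the streak factor Brachyury, passed 1 FPKM in too few libraries to be a member (at most 1.14 FPKM). In the trophoblast and surface ectoderm list 6 of 12 rose and 4 fell (median 0.259), with the homeobox genes Esx1 and Dlx3 at 35.7 and 9.42 FPKM (2.02 and 1.92). Of 5 fibroblast members 4 rose and 1 fell, and of 5 blood and endothelial members 2 rose and 2 fell (medians 0.985 and -0.127, the second turning to 0.084 under TPM scaling).

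**Figure D3:**
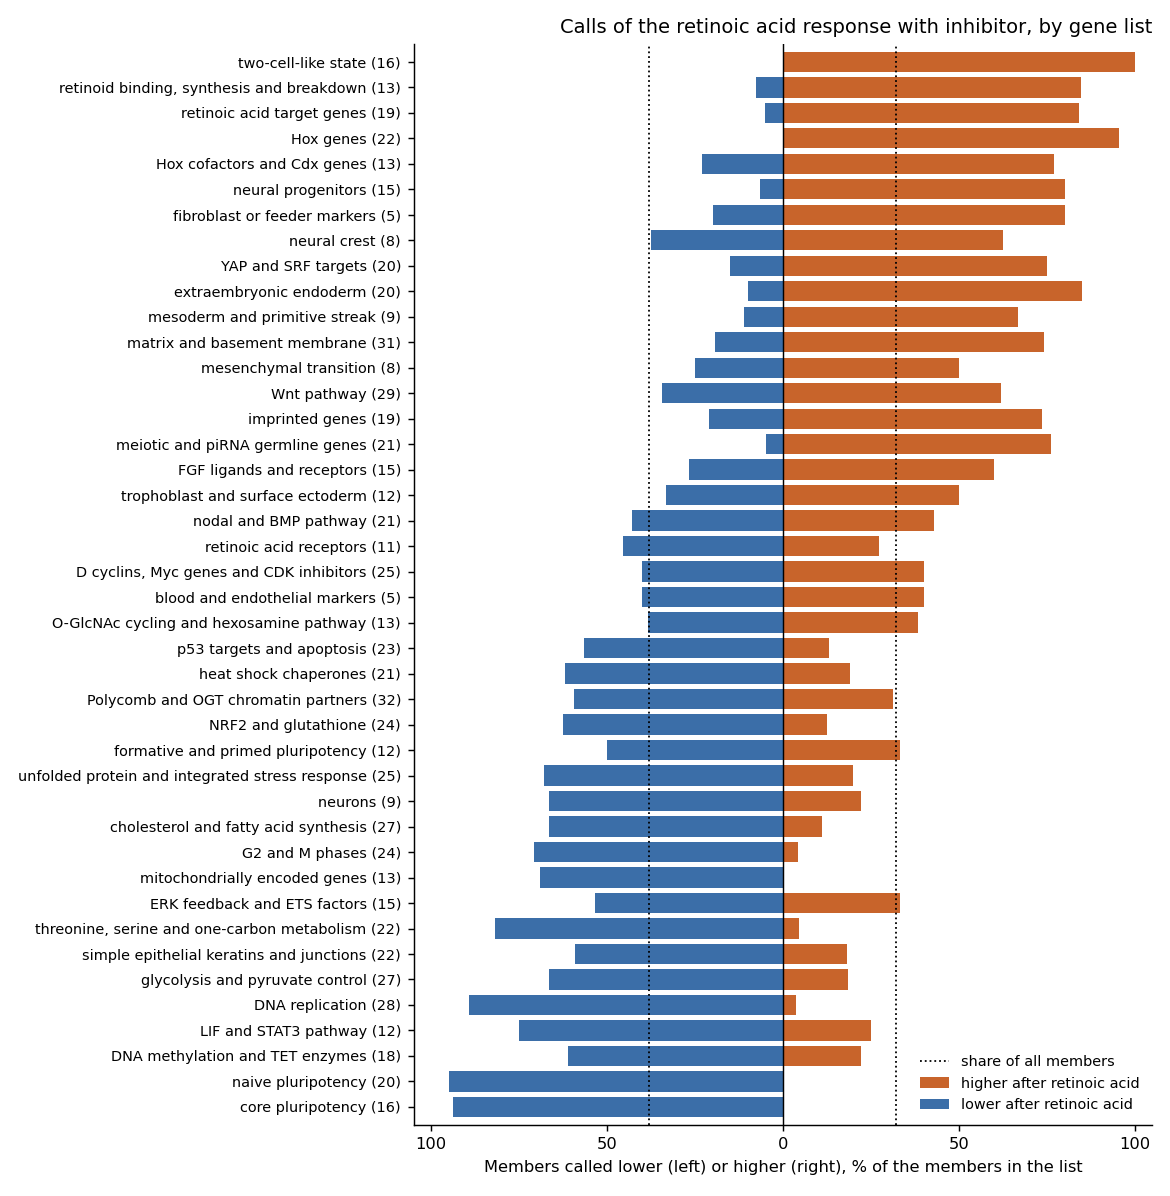
Share of the members of each list called higher (right) or lower (left) after RA, with the number of members in brackets and dotted lines at the shares of all members, 32.2% higher and 38.1% lower. Lists are ordered by median log2 fold change, from the core and naive pluripotency lists, where 15 of 16 and 19 of 20 fell, up to the 2-cell-like, retinoid, RA target and Hox lists.

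Few genes switched between silence and clear expression. Only 14 members went from below 0.5 FPKM in all mESC_OGTi libraries to at least 5 FPKM in all RA_OGTi libraries. Among them were Hoxb1, Hoxb4, Hoxb7, Cyp26b1 and the keratin Krt20 (0.284 to 9.3 FPKM), Vstm2b (0.2 to 8.48 FPKM), Thbs4, a matrix protein (0.201 to 5.94 FPKM), Fut4, a fucosyltransferase (0.429 to 5.14 FPKM), and Pgm5 (0.309 to 6.02 FPKM). The other 5 were the unnamed transcript upstream of Cyp26a1, Gm48388, Gm15050, Pramef25 and Gm13119, of which the last 2 and Gm48388 belong to repeated families whose reads are uncertain. Only 6 went the other way. They were Otx2, Ly6g6e (18.8 to 0.231 FPKM), the neighbouring nephrin genes Nphs1 (6.99 to 0.208 FPKM) and Kirrel2 (6.65 to 0.101 FPKM), Klk1 (6.34 to 0.0993 FPKM) and the small RNA Gm25908.

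Transcripts that code for no protein were among the largest changes. H2-Bl, a class I histocompatibility gene of a near-identical family, went from 5.53, 6.21 and 6.55 to 176, 182 and 198 FPKM (log2 fold change 4.71). Platr10, a pluripotency-associated lincRNA, went from 35.2, 36.6 and 38.1 to 1.48, 1.29 and 0.858 FPKM (-4.10), and the lincRNA Gm46332 from 30.03 to 0.576 FPKM (-4.32). The pseudogene AC124592.1 fell by 3.38. Among protein-coding genes not yet described, Tdh, the threonine dehydrogenase on which mouse stem cells depend, went from 133, 146 and 125 to 1.7, 1.55 and 2.02 FPKM (-5.62). Pmp22, a myelin membrane protein, rose from 1.51 to 25.5 FPKM (3.40) and Barx1, a homeobox factor, from 0.894 to 17.4 FPKM (3.28). Gm6803 and Gm2022, which lie close together on chromosome 12, rose to 22.7 and 12.8 FPKM, with uncertain reads.

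Most actin and matrix genes rose, and more epithelial keratin and junction genes fell than rose. Of 20 members among targets of YAP and SRF, factors that read cell tension and actin state, 15 rose and 3 fell (median log2 fold change 0.838). Cyr61 and Ctgf, secreted matrix proteins, went from 4.74, 5.2 and 5.59 to 70.3, 67 and 69 FPKM (3.5) and from 5.71, 6.08 and 5.74 to 57.6, 63.4 and 65.4 FPKM (3.20). Acta1, a muscle actin, went from 0.379, 0.844 and 0.835 to 14.5, 14.7 and 15.9 FPKM (3.26). The groups of these genes did not overlap. Of 31 matrix and basement membrane members 23 rose and 6 fell (median 0.728), with the collagen VI chains Col6a1 and Col6a2 at 4.82 and 5.65 FPKM from 0.297 and 0.667 FPKM (2.17 and 2.0). Of 22 simple epithelial keratins and junction members 4 rose and 13 fell (median -0.583), against 8 and 12 under TPM scaling (median -0.358). Cldn7 and Cldn4, claudins of tight junctions, were lower (-1.61 and -1.26). The widest change in the list was a rise (1.83). Krt18 was higher, from 32.5 to 83 FPKM (1.33), and so was the junction gene Dsc2 (1.81 to 2.58 over the alternatives). In the mesenchymal transition list 4 of 8 rose and 2 fell (median 0.58), and Vim, which encodes vimentin, was among those that fell (-1.06).

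Genes for DNA replication fell in most cases. Of 28 replication members 25 fell and 1 rose (median log2 fold change -0.664, range -1.43 to 0.27), with Mcm10, which takes part in activating the replicative helicase, at 25.5, 26.9 and 27 against 9.31, 9.02 and 9.22 FPKM (-1.43). Mcm7, Mcm5 and Pcna fell by 1.09, 1.08 and 1.08. Of 24 members for G2 and M phases 17 fell and 1 rose (median -0.413, with 10 and 4 under TPM scaling), led by Cdc20 and Aurka (-1.0 and -0.96). Of 25 D cyclins, Myc genes and CDK inhibitors 10 rose and 10 fell, with a median of -0.0746 that turned to 0.195 under TPM scaling. Mycn went from 51.6, 52.7 and 51 to 8.62, 7.35 and 7.87 FPKM (-2.56), Ccnd1 from 15.3 to 3.2 FPKM (-1.95), and the cyclin Ccnd2 rose from 0.248 to 2.83 FPKM (1.62). The CDK inhibitors Cdkn2b and Cdkn2a rose (1.92 and 1.27), whereas Cdkn1a (p21) lay at 32.5 ± 3.32 and 31.1 ± 6.09 FPKM (SD, n = 3), which did not pass (-0.07, adjusted p = 0.587). The fit without RA_OGTi replicate 3 called Cdkn1a lower (adjusted p = 0.0494), and its sign turned without RA_OGTi replicate 2 (0.0387) and under TPM scaling (0.195). Of 23 p53 targets and apoptosis genes 3 rose and 13 fell (median -0.265), against 7 and 7 under TPM scaling (median -0.000958), and Trp53 itself fell from 128 to 32.8 FPKM (-1.94).

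Metabolic and stress lists leaned downward on the FPKM scale, and under TPM scaling some lost most of that lean. Of all members 38.1% fell and 32.2% rose, while at 50 FPKM or more 770 of 1163 fell (median log2 fold change -0.371). The part of expression level in the counts of these lists was not tested. Of 27 glycolysis members 18 fell and 5 rose (median log2 fold change -0.605), where Pdk1, which inhibits pyruvate dehydrogenase, went from 37.2, 35.7 and 35.8 to 9.19, 9.81 and 8.57 FPKM (-1.87) and Hk2 fell by 1.68. Of 22 members for threonine, serine and folate metabolism 18 fell and 1 rose (median -0.524), with Shmt1 and Gldc lower (-1.80 and -1.43) beside Tdh. Of 27 cholesterol and fatty acid synthesis members 18 fell and 3 rose (median -0.403), against 14 and 8 under TPM scaling. Insig1, which restrains sterol synthesis, went from 28.5, 26.5 and 30.3 to 22.7, 24.6 and 23.5 FPKM (-0.26). Of 25 unfolded protein and integrated stress response members 17 fell and 5 rose (median -0.355), against 12 and 7 under TPM scaling (median -0.0823). The stress factors Ddit3 (CHOP) and Atf3 rose against the list, to 42.4 and 8.68 FPKM (1.37 and 1.53), while Ddit4 fell (-1.09). Of 24 NRF2 and glutathione members 15 fell and 3 rose (median -0.344), against 9 and 8 under TPM scaling (median -0.0731), with the peroxidases Gpx2 lower (-3.03) and Gpx3 higher (1.75). Of 21 heat shock chaperones 13 fell and 4 rose (median -0.275), against 8 and 7 under TPM scaling (median -0.0132), led by Hspb1 (-1.41), against Hspa1a and Hspa1b (2.37 and 1.72), whose near-identical reads are uncertain. Of 13 mitochondrially encoded genes 9 fell and 0 rose (median -0.445), a count of 5 under TPM scaling, with mt-Cytb lowest (-1.33).

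Chromatin genes divided by member. Of 18 DNA methylation and TET genes 11 fell and 4 rose (median log2 fold change -0.785). Tet1, which oxidises methylcytosine, went from 22.1, 20.3 and 18.2 to 2.77, 3.12 and 2.33 FPKM (-2.50), Dnmt3b fell by 1.58, and Trim28, a corepressor of transposons, went from 709.8, 708 and 712 to 236, 224 and 250.5 FPKM (-1.58). The methyl-binding gene Mbd2 rose from 6.3 to 15 FPKM (1.13). Of 32 Polycomb and OGT partner members 19 fell and 10 rose (median -0.29), against 13 and 12 under TPM scaling, and here paralogues moved in opposite directions. Phc1 went from 150.2, 150.2 and 148 to 29.5, 31.3 and 32.8 FPKM (-2.22) as Phc2 went from 8.29, 9.05 and 9.03 to 23.5, 22.6 and 25.4 FPKM (1.34), and Cbx8 rose from 0.956 to 3.9 FPKM (1.33).

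Germline, imprinted and 2-cell-like genes rose. Of 21 meiotic and piRNA members 16 rose and 1 fell (median log2 fold change 0.428), with Dpep3 and the meiotic cohesin Rec8 at 17.7 and 33.4 FPKM (2.32 and 2.05) beside Stra8. Of 19 imprinted genes 14 rose and 4 fell (median 0.459), with H19, a non-coding RNA, from 21.4 to 69.1 FPKM (1.64) and Ndn from 4.52 to 14.4 FPKM (1.47). All 16 members of the 2-cell-like list, transcripts of a rare state of cultured stem cells, rose (median 2.16), of which 12 passed the filter only through RA_OGTi. Zscan4d went from 0.995, 1.14 and 0.818 to 16.2, 16.5 and 16 FPKM (3.12) and Gm8300 from 1.24, 1.09 and 1.09 to 17, 20.3 and 19 FPKM (3.20). These genes belong to near-identical families, so which copy rose is uncertain.

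The enzymes of O-GlcNAc cycling changed little beside these. Of 13 members of the O-GlcNAc and hexosamine list 5 rose and 5 fell, with a median of -0.183 that turned to 0.074 under TPM scaling. Ogt (ENSMUSG00000034160, chromosome X, 101640060 to 101684351) stood at 40.9, 41.4 and 39.9 FPKM in mESC_OGTi and 25.9, 28.5 and 24.7 FPKM in RA_OGTi, a fall without overlap (log2 fold change -0.61, SE 0.096, adjusted p = 0.000136). The mESC_OGTi level lay above that of mESC_control, as given in the closing section. Mgea5 lay at 9.81, 9.41 and 9.16 against 7.82, 9.56 and 7.39 FPKM, with overlap, and did not pass (-0.18, SE 0.076, adjusted p = 0.0506). It passed as lower in 6 of its 16 alternatives, namely without RA_OGTi replicate 2 (-0.281, adjusted p = 0.00126), at a pseudocount of 0.1, with members only fitted, with the stricter filter, with the replicate block and with limma-voom. Its sign turned under TPM scaling (0.0675, adjusted p = 0.596). Gfpt1, the entry enzyme of the hexosamine pathway, rose from 7.36, 7.07 and 7.67 to 10.9, 11.3 and 10.8 FPKM (0.52). Gfpt2, Gnpda1 and Amdhd2, of which the last 2 return hexosamines to glycolysis, fell (-0.85, -1.16 and -0.98).

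The response was next set beside that of cells without inhibitor (RA_control against mESC_control), which shares no library with it. Across members the log2 fold changes had a Pearson r of 0.926 and a Spearman rho of 0.907, given as a description since genes are not independent. Of the calls with inhibitor 86.3% were calls in the same direction without it (8495 members), as were 84.4% the other way round, and 79 members were called in opposite directions. The difference of RA responses was called for 1103 members (7.88%), 578 higher (4.13%) and 525 lower (3.75%) with inhibitor. Under TPM scaling the share of higher calls among them was 62.7% in place of 52.4%. Differences of at least 2-fold leaned the other way, with 11 higher and 47 lower. In the fits that left out 1 library the count fell to 715 without mESC_control replicate 2, 673 without mESC_OGTi replicate 2, 699 without RA_control replicate 1 and 610 without RA_OGTi replicate 1. Where the difference was called, 401 members responded more strongly with inhibitor, 443 less strongly, and 259 had responses of opposite sign.

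**Figure D4:**
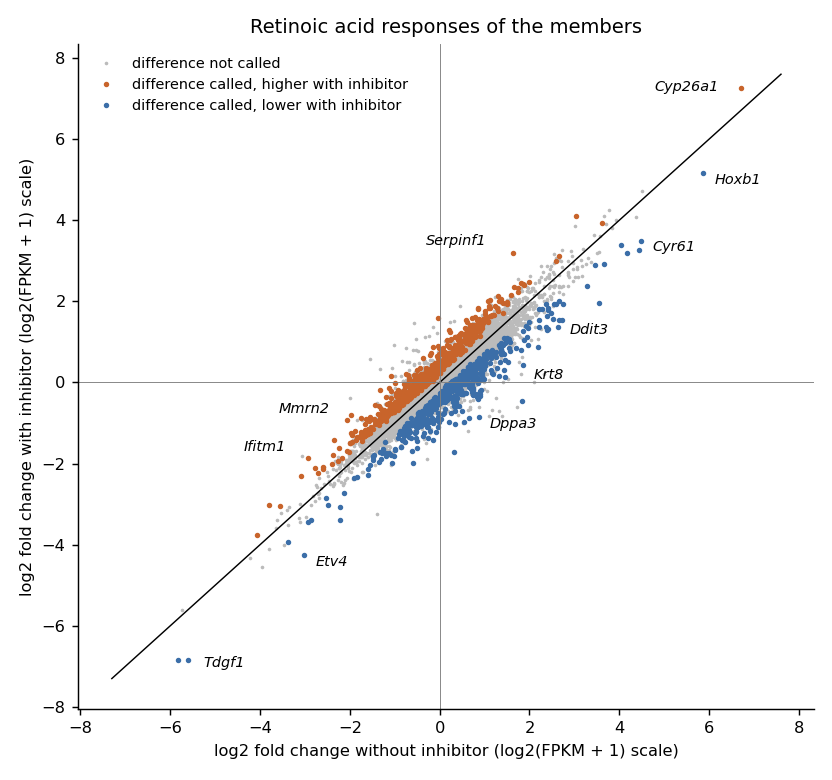
Log2 fold change of each member after RA without inhibitor (x axis) and with inhibitor (y axis), with members whose difference was called in orange (578 higher) and blue (525 lower) and a line of equality. Most members lie along the line (Pearson r 0.926), Serpinf1 lies above it (3.20 against 1.62), and Cyr61, Krt8, Ddit3 and Etv4 lie below it.

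In several lists the response with inhibitor was lower in more members than it was higher, and 4 of them are described here. For YAP and SRF targets the difference was called in 11 of 20 members, all lower, for keratins and junctions in 7 of 22, all lower, for the unfolded protein and integrated stress response in 10 of 25, all lower, and for cholesterol and fatty acid synthesis in 13 of 27, 12 of them lower. The shares over all members were 3.75% lower and 4.13% higher. Over the alternatives these counts ran from 8 to 11, 7 to 10, 7 to 12 and 11 to 16. Among other lists, the difference was lower in 4 and higher in 0 of 12 LIF and STAT3 members. It was lower in 5 and higher in 0 of 23 p53 and apoptosis members, and lower in 5 and higher in 2 of 27 glycolysis members. The meiotic and piRNA list had 5 in each direction of 21. Cyr61 rose to 149, 136 and 159 FPKM without inhibitor and to 70.3, 67 and 69 FPKM with it, from 4.34, 5.89 and 6.83 and from 4.74, 5.2 and 5.59 FPKM (difference -0.99, SE 0.16, adjusted p = 0.00554). The starting levels overlapped and the RA levels did not. Ctgf showed a difference of -0.97 (adjusted p = 0.00237) in the same way.

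Keratins, stress and lipid genes gave like patterns. Krt8, a keratin of simple epithelia, went from 36.1, 34.7 and 37.1 to 138, 113 and 148 FPKM without inhibitor, and with it from 29.7, 37.3 and 36.6 to 47.4, 45.2 and 48.5 FPKM (difference -1.41, SE 0.14, adjusted p = 0.000434). Its partner Krt18 differed by -1.07 and Cldn7 by -1.10 (adjusted p = 0.00143 and 0.000997). Ddit3, a factor of the stress response, rose to 76.8, 71.3 and 84.9 FPKM without and 40.3, 40.5 and 46.2 FPKM with inhibitor, from 10.5, 13.1 and 11.2 and from 13.8, 16.4 and 17.2 FPKM (difference -1.28, adjusted p = 0.000597). The stem cell libraries with inhibitor were the higher ones before RA, and the order was reversed after it. Herpud1, a stress gene of the endoplasmic reticulum, lay at 13.2 FPKM before and after RA with inhibitor but at 8.49 and 16.1 FPKM without (difference -0.86, adjusted p = 0.00682). Insig1, which restrains sterol synthesis, rose from 36.1, 36.7 and 34.4 to 57, 49.6 and 55 FPKM without inhibitor and fell from 28.5, 26.5 and 30.3 to 22.7, 24.6 and 23.5 FPKM with it (difference -0.83, adjusted p = 0.000464). The desaturases Scd1 and Scd2 differed by -0.83 and -0.94 (adjusted p = 0.000842 and 0.00202).

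**Figure D5:**
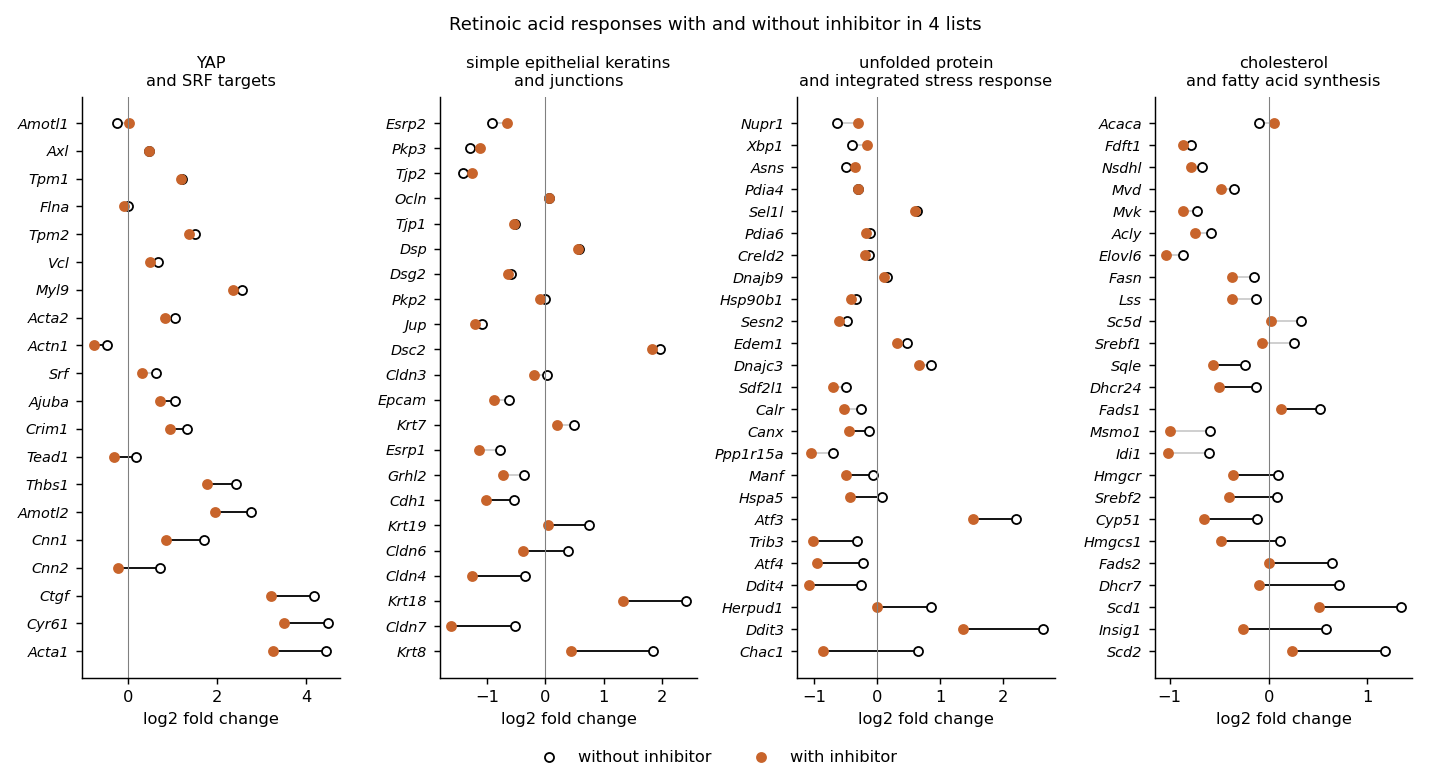
Log2 fold changes after RA without inhibitor (open circles) and with inhibitor (filled circles) for the members of 4 lists that are reported here, joined by a black line where the difference was called and a grey line where it was not. The called members drawn lie further left with inhibitor in all 4 lists (Krt8 0.44 against 1.85, Cyr61 3.5 against 4.49).

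In the core pluripotency list the difference was called lower in 6 of 16 members and higher in 2, in the naive list in 5 and 3 of 20, and in the ERK list in 4 and 1 of 15, beside 3.75% and 4.13% of all members. The 8 calls in the core list became 5 without mESC_control replicate 2, mESC_OGTi replicate 2 or RA_OGTi replicate 1, and the 5 in the ERK list became 3 under 7 alternatives. Tdgf1 ended at 11.1, 9.55 and 10.9 FPKM without inhibitor and at 3.43, 3.65 and 3.02 FPKM with it, from 668, 665 and 624 and from 488, 471 and 531 FPKM (difference -1.01, SE 0.10, adjusted p = 0.000409). Etv4 ended at 8.97, 10.1 and 10.4 and at 1.68, 1.65 and 1.74 FPKM (difference -1.25, SE 0.072, adjusted p = 2.78e-05), having started lower with inhibitor as well, at 50.4 to 51.6 against 85.1 to 88.3 FPKM. Nanog started at like levels (272 to 303 and 289 to 299.8 FPKM) in both and ended at 35.5, 36.1 and 39.7 against 26.7, 26.1 and 25.1 FPKM (difference -0.52, adjusted p = 0.00327). Socs3, Dnmt3l and Klf2 differed by -0.56, -0.58 and -0.69 (adjusted p = 0.00549, 0.00347 and 0.0062). Dppa3, a germline and naive marker, rose without inhibitor from 2.71, 3.2 and 2.33 to 4.92, 6.18 and 6.49 FPKM and fell with it from 4.34, 3.21 and 3.31 to 1.64, 1.86 and 1.2 FPKM (difference -1.72, adjusted p = 0.000644). The ERK inhibitors Spry4 and Spry2 showed no called difference (0.07 and -0.14). Dppa2 and Manba went the other way, having fallen less with inhibitor (0.53 and 0.88, adjusted p = 0.012 and 0.000175), as did L1td1, an RNA-binding protein of stem cells (0.51, adjusted p = 0.0259), whose call was lost under 7 alternatives (adjusted p from 0.0507 to 0.0661).

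For RA targets the differences were small and depended on the settings. The difference was called in 6 of 19 members of that list, 5 higher and 1 lower, and the count ran from 1 to 9 over the alternatives. Cyp26a1 reached 137, 124 and 141 FPKM without inhibitor and 212, 194 and 209 FPKM with it (difference 0.56, SE 0.14, adjusted p = 0.0303). This call was lost in 8 of the 12 fits that each dropped a library (adjusted p between 0.0571 and 0.0749). Among those fits it passed only without replicate 3 of mESC_control, mESC_OGTi or RA_control or replicate 2 of RA_OGTi. Changed settings cost Cyp26a1 its call too, at adjusted p 0.646 (limma-voom), 0.432 (pseudocount 0.1), 0.108 (TPM) and 0.0697 (no filter). Its mESC_OGTi libraries stood at only 0.182 to 0.578 FPKM. Hoxb1 was the lower one, at 62, 62.7 and 51.7 FPKM without and 37.8, 37.2 and 33.3 FPKM with inhibitor (difference -0.70, adjusted p = 0.00517). With stem cell libraries at or near 0 that value rests on the pseudocount, and the call was lost at a pseudocount of 0.1 (adjusted p = 0.197) and with limma-voom (adjusted p = 0.744). In RA-treated cells, then, Cyp26a1 and Hoxb1 stood on opposite sides of their levels without inhibitor, with no overlap of libraries. Rara, Dhrs3, Cdx1 and Stra8 are given with their losses in the closing section.

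Several large differences concerned genes not described so far. Serpinf1, which encodes the anti-angiogenic PEDF, rose to 3.34, 3.74 and 3.64 FPKM without inhibitor and to 13.4, 11.4 and 13.6 FPKM with it, from 0.48 and 0.5 FPKM (difference 1.57, SE 0.11, adjusted p = 8.98e-05). Ntn1, the guidance cue netrin, fell without inhibitor from 7.09, 6.23 and 6.98 to 5.58, 4.99 and 4.54 FPKM and rose with it from 6.26, 6.77 and 5.97 to 9.83, 10.4 and 10.2 FPKM (difference 0.97, adjusted p = 0.000436). Mmrn2, an endothelial matrix protein, and Gpa33, an intestinal surface antigen, fell less with inhibitor (1.14 and 1.17, adjusted p = 0.000102 and 0.0012). Dusp1, a phosphatase that shuts off MAP kinases, rose without inhibitor from 44.4, 43.7 and 44 to 53.8, 54.5 and 60.3 FPKM and fell with it from 33.5, 38.4 and 36.3 to 16.1, 16.9 and 19.2 FPKM (difference -1.36, adjusted p = 8.98e-05). Among cell cycle genes the CDK inhibitor Cdkn1c rose to 35 FPKM without and 16.3 FPKM with inhibitor (difference -1.01, adjusted p = 0.000436), and Ccnd1 fell further with it (-0.61, adjusted p = 0.00867).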

How the data were processed

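RNA of 12 libraries (3 each of mESC_control, mESC_OGTi, RA_control and RA_OGTi) was extracted with TRIzol and prepared with the NEBNext Ultra kit, per the labels' protocols. The submitters' processing notes name HISAT2 2.0.5, featureCounts 1.5.0 and GRCm38, and no source used here gives the strand setting. The authors deposited a table of FPKM per gene. Multiplied by gene length and scaled, 100% of the values came out whole within 0.02, with 15553627 to 17833464 fragments a library, which limits the precision of low genes. The total by which each library had been divided, recovered in the same step, was not its assigned fragments. Assigned fragments were 1.06 to 1.11 times that total in mESC_OGTi and 0.891 to 0.926 times in RA_OGTi. Median-of-ratios factors of the deposited values were 1 in every library, so these values already carried a scaling between libraries. The part of that scaling in the fold changes was not tested.

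Groups came from the sample labels. Genes with at least 1 FPKM in at least 3 of 12 libraries (14866) were fitted as log2(FPKM + 1) with limma 3.58.1 (R 4.3.3, eBayes with a variance trend), over all 12 libraries for a shared estimate of spread. Adjusted p-values (Benjamini-Hochberg) under 0.05 were called, and counts are over the 13990 members. The contrasts were the RA response with inhibitor and its difference from the response without inhibitor. On simulated data for 6 libraries, a fit on 13990 genes recovered 73.1% of 67 genes changed 1.5-fold. It recovered 94% of 67 changed 2-fold and 100% of 66 changed 4-fold, and 14 of 192 calls were false. The changed genes all lay above a minimum of fragments, and every gene had the same dispersion. The reported fit used 12 libraries and called 70.4% of members, so these rates cannot be carried over to it.

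Named genes were fixed by a rule: the 12 largest rises and falls of protein-coding members and the 4 largest of other biotypes (called, groups not overlapping, mean of at least 5 FPKM), up to 4 called members of each list with the largest response and up to 3 with a called difference, the 10 largest differences in each direction, and a set of known RA, pluripotency, lineage, cell cycle and O-GlcNAc genes. Switched and Hox genes were described as well. Some genes are not reported here, though counts over lists include them. Members and lists were chosen with earlier results of these data known, and genes can stand in several lists. Lists are described by counts and medians, with no test of a list. The alternatives were other pseudocounts, filters, scalings, fold limits, limma without the trend, limma-voom on the recovered fragments, a replicate block, and leaving out each library in turn. Among the scalings, median-of-ratios had a factor of 1 for every library, so its agreement was fixed in advance. TPM was the only scaling that could move a call. No library was left out of the analysis. Python 3.11.15 with pandas 2.3.3 and numpy 2.4.6 was used.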

Additional observations from a re-analysis of the deposited data

Results flagged for a closer look

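For 57 named genes the RA response differed between cells with and without inhibitor by the interaction term of limma (adjusted p under 0.05). Values are the response with inhibitor minus that without, on the log2(FPKM + 1) scale. In 39 of them the call held under all alternatives that set no limit on fold change. Among pluripotency, germline and signalling genes these were Tdgf1 (-1.01), Etv4 (-1.25), Socs3 (-0.56), Nanog (-0.522), Dnmt3l (-0.58), Klf2 (-0.692), Dppa3 (-1.72), Dppa2 (0.528), Manba (0.879), Dusp1 (-1.36), Sycp3 (-0.933), Piwil2 (-0.53) and Mov10l1 (-0.508). Among keratins, junctions, matrix and cytoskeleton they were Krt8 (-1.41), Krt18 (-1.07), Cldn7 (-1.1), Ctgf (-0.972), Cyr61 (-0.993), Tubb3 (-0.698) and Prph (-1.33). Among stress, lipid and metabolic genes they were Ddit3 (-1.28), Herpud1 (-0.856), Insig1 (-0.835), Scd1 (-0.826), Scd2 (-0.937), Pdk4 (-1.05), Cidea (-1.31) and Pipox (0.924). The cell cycle genes were Ccnd1 (-0.608) and Cdkn1c (-1.01). The others were Ogt (-0.949), Serpinf1 (1.57), Gpa33 (1.17), Mmrn2 (1.14), Ntn1 (0.969), Ifitm1 (1.07), Ifitm3 (0.991), Hist1h2bc (0.935) and Zbtb32 (-1.38), of which the Ifitm and histone genes have near-identical copies.

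Ogt rose after RA without inhibitor (0.34) and fell with it (-0.61). The 2 responses started from different levels. The stem cell libraries lay between 16.4 and 20.2 FPKM in mESC_control and between 39.9 and 41.4 FPKM in mESC_OGTi.

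Hoxb1 (-0.701), Acta1 (-1.18) and Rgcc (-1.58) kept their call in all fits that left out a library. They lost it with limma-voom (adjusted p = 0.744, 0.14 and 0.0639), and Hoxb1 also at a pseudocount of 0.1 (adjusted p = 0.197).

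The other 15 lost their call in at least 1 of the 12 fits that left out a library. Those lost in most fits were Esrrb (0.297), Dhrs3 (0.467), Rara (0.376), Cdx1 (0.501), Myl7 (1.0), Stra8 (0.316), Rhox1 (0.973) and Cyp26a1 (0.558), lost in 11, 11, 10, 10, 10, 9, 9 and 8 fits. The call for Esrrb passed only without RA_OGTi replicate 2 and that for Dhrs3 only without RA_OGTi replicate 1. Rara passed without RA_control replicate 1 or RA_OGTi replicate 2. Cdx1 and Myl7 passed without mESC_control replicate 3 or mESC_OGTi replicate 3. Stra8 passed without mESC_control replicate 1, mESC_OGTi replicate 3 or RA_control replicate 3. Rhox1 passed without mESC_OGTi replicate 3, RA_control replicate 3 or RA_OGTi replicate 1. All of these calls were also lost with no filter. Cyp26a1 and Dhrs3 were lost at a pseudocount of 0.1 (adjusted p = 0.432 and 0.212) and with limma-voom (adjusted p = 0.646 and 0.454). Rara, Cdx1 and Myl7 were lost at that pseudocount too (adjusted p = 0.0541, 0.0581 and 0.0521).

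Those lost in fewer fits were Mgea5 (-0.484), Chac1 (-1.52), Sox2 (-0.324), Aldoc (-0.715), Gfpt1 (-0.37), Eno3 (0.572) and Lin28a (-0.281). Mgea5 was lost without mESC_control replicate 2 (adjusted p = 0.0526), RA_control replicate 1 (0.0515) or RA_OGTi replicate 1 (0.0583), and Sox2 without mESC_control replicate 2 (0.0532), mESC_OGTi replicate 2 (0.0544) or RA_OGTi replicate 1 (0.0581). Chac1 was lost without mESC_OGTi replicate 1 (0.0512), mESC_OGTi replicate 2 (0.053) or RA_control replicate 1 (0.05). Aldoc was lost without RA_control replicate 1 (0.0527) or RA_OGTi replicate 1 (0.0604). Gfpt1, Eno3 and Lin28a were each lost in 6 fits, with adjusted p up to 0.0611, 0.0664 and 0.0632. Under TPM scaling Sox2, Gfpt1 and Mgea5 were lost as well (adjusted p = 0.119, 0.0827 and 0.0791). With no filter Chac1, Aldoc and Eno3 were lost (adjusted p = 0.0593, 0.0578 and 0.0638).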

How the results depend on the processing

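The RA response with inhibitor was called for 9844 members. The count was 6046 with a stricter filter (mean of at least 5 FPKM), where fewer genes are tested, and 1983 with an absolute log2 fold change of at least 1. Leaving out each library in turn gave 9299 to 9562. The stricter filter lowered the share of higher calls from 45.8% to 34.2%, and TPM scaling raised it to 65.7%. The difference of RA responses was called for 1103 members. It was called for 667 with no filter and 58 with an absolute log2 of at least 1, and leaving out each library gave 610 to 992. Limma-voom on the recovered fragments called 9975 and 1200. The replicate block called 9926 and 1179, but the numbers did not pair the libraries. The deviations of same-numbered libraries of the inhibitor groups correlated at 0.0307, 0.0191 and 0.103.

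Of 189 named genes, 184 kept their side of the threshold in the RA response under all alternatives that set no limit on fold change. Under TPM scaling the sign turned for Rara (0.207), Mgea5 (0.0675), Cdkn1a (0.195) and Lin28a (0.131). Leaving out 1 library moved Cdkn1a between -0.221 and 0.0387. The fall of mt-Atp8 (log2 fold change -0.97, limma adjusted p = 0.0241) was lost with no filter (0.0587), under TPM scaling (0.0719) and without mESC_OGTi replicate 1 (0.107) or RA_OGTi replicate 2 (0.106). Of 116 genes tested for the difference, 62 kept their side of the threshold and 54 lost a call in at least 1 alternative. The causes were not tested. Depth limits genes near 1 FPKM, and 3 libraries a group limit all tests.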
